A study of Mus musculus with 14 samples.

Results

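Group I metabotropic glutamate receptor signalling was examined in mouse cerebellum through 7 genes of the group I receptor pathway, out of 24100 genes in the count table. The genes were listed by name: the receptor gene Grm5, the phospholipase gene Plcb1, the channel gene Trpc1, the kinase gene Prkca and the scaffold genes Homer1, Homer2 and Homer3. All 7 were found in the table and all 7 passed the filter on low counts in each of the 3 model fits.

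Cerebella were taken at postnatal day 21 from Astn2 WT and Astn2 KO littermates, all of which carried the Tg(Pcp2-L10a-EGFP) transgene. The Pcp2 promoter places an EGFP-tagged ribosomal protein in Purkinje cells, so that translating ribosome affinity purification (TRAP) with antibodies to GFP recovers mainly Purkinje cell mRNA. Input is the 3% of the cleared homogenate set aside before purification and stands for whole cerebellum. The 14 libraries fell into input WT (1 female, 3 male), input KO (2 female, 1 male), TRAP WT (1 female, 2 male) and TRAP KO (2 female, 2 male). The labels do not say whether a library is 1 animal or a pool, so the p-values measure the spread between these libraries.

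Glutamate binding to group I receptors, such as mGluR5 (from Grm5), activates Gq proteins and phospholipase C beta. The enzyme releases inositol trisphosphate, which opens calcium stores, and diacylglycerol, which with calcium activates protein kinase C, while TRPC channels carry a slow inward current. Homer proteins hold the receptors near inositol trisphosphate receptors and Shank scaffolds. In Purkinje cells this pathway acts at the parallel fibre synapse and is required for long-term depression there.

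Within the Homer family Homer3 was higher and Homer1 and Homer2 were lower in TRAP than in input, and the 300 bases around their first listed start sites are shown for that reason (RefSeq, GRCm38.p6, 250 bases before to 50 after the start, on the gene's strand, 5′ to 3′). Capitals mark the nuclear receptor half-site AGGTCA, the cAMP response element half-site TGACGT and the GC box GGGCGG, searched on both strands. The Homer1 window is chr13:93303507-93303806 on the plus strand. The Homer2 window is chr7:81706876-81707175 on the minus strand. The Homer3 window is chr8:70282749-70283048 on the plus strand.
Homer1: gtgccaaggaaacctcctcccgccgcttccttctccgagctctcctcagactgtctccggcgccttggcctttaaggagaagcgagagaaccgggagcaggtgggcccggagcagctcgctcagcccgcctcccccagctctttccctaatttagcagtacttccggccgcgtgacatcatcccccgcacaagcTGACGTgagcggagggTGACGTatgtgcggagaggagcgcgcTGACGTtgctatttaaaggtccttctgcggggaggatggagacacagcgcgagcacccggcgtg
Homer2: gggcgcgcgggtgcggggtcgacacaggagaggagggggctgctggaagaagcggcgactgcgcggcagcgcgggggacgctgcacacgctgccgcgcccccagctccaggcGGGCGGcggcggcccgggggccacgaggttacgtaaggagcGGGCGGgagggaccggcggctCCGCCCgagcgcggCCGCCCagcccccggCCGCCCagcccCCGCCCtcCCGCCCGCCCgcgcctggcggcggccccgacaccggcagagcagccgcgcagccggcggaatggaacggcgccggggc
Homer3: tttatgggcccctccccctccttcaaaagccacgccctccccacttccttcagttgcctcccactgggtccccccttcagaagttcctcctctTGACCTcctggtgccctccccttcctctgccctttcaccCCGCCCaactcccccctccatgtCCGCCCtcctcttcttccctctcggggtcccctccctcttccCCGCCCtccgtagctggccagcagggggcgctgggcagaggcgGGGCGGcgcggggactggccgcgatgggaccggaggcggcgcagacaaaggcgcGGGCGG

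The Homer3 window held 1 match to AGGTCA and 5 to GGGCGG. The Homer1 window held 3 matches to TGACGT and 0 to the other motifs, and the Homer2 window held 8 matches to GGGCGG, some of which overlap, and 0 to the other motifs. Of 32851 promoter windows of the same length, 16.3% held AGGTCA, 7.51% held TGACGT and 35.7% held GGGCGG. GC content was 63.0% in the Homer1 window, 82.3% in the Homer2 window and 69.7% in the Homer3 window, against a median of 52.7% over all windows. These matches describe the letters in the windows. The TGACGT motif was added after the sequences had been seen. Homer1 and Homer2 each have a further start site in the table that is not printed, and 6 of the 7 genes had an entry there. The further Homer1 window held 1 match to AGGTCA and 0 to the other motifs, with a GC content of 44.7%. In the further Homer2 window there were 0 matches to any of the motifs, with a GC content of 52.3%. The motif content of both genes thus differed between their start sites.

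Library totals ranged from 18799609 to 54229183 counts. CPM is the count scaled to library size after TMM scaling over all libraries, and errors of means are SD. Astn2 averaged 94.4 ± 6.90 CPM (n = 4) in WT input against 0.885 ± 0.128 CPM (n = 3) in KO input. In TRAP it averaged 130 ± 14.8 CPM (n = 3) for WT against 1.52 ± 0.447 CPM (n = 4) for KO. The labelled Purkinje fraction carried its markers: all 10 Purkinje genes rose in TRAP in both genotypes in edgeR's test, while the granule cell list and the oligodendrocyte list fell in full (10 of 10 each). Of 10 Bergmann glia and astrocyte genes 9 fell, and of 8 molecular layer interneuron genes 7 fell; the exceptions, Aldoc and Pvalb, are genes that Purkinje cells also express. The summed granule level was 5889 to 6170 CPM in input and 913.5 to 1645 CPM in TRAP, so granule cell transcripts were still counted in the purified fraction. Microglial genes fell for 7 of 8 in both genotypes, endothelial genes for 8 of 8 in WT and 5 of 8 in KO, and Golgi and unipolar brush cell genes for 5 of 6 and 6 of 6. For comparison, 37.0% of all genes tested rose and 38.5% fell in WT, and 36.3% rose and 39.6% fell in KO. The marker lists were chosen with earlier results of these data known, so they are not an independent check.

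Homer3 encodes the long Homer scaffold found in Purkinje cell spines, and it was by far the highest of the 7 genes. Its level was 462, 460.0, 499.5 and 495 CPM in the input WT libraries (replicates 1 to 4) and 5715, 5606 and 8474 CPM in TRAP WT (replicates 1 to 3). In KO it was 412, 419 and 559 CPM in input and 5245, 5058, 5378 and 6790 CPM in TRAP. Every TRAP library was above every input library, and within each fraction the genotypes overlapped. In WT the TRAP level exceeded input by 3.80 ± 0.15 (SE) on the log2 scale, edgeR adjusted p = 1.29e-10 (quasi-likelihood, adjusted over all genes). In KO the excess was 3.58 ± 0.16 (SE), edgeR adjusted p = 6.62e-10. Among 16042 genes ordered by this fold change it stood 97th from the top in WT and 107th in KO. Replicate 3 of TRAP WT and replicate 4 of TRAP KO had the highest Homer3 levels of their groups; the same 2 libraries had the lowest summed granule marker levels, 1002 and 913.5 CPM, and the part of this in the result was not tested.

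Homer1 encodes a Homer scaffold with a short, activity-induced form, which gene-level counts cannot separate from the long forms. Its levels were 39.3, 41.5, 44.7 and 46.3 CPM in input WT and 32.0, 29.4 and 24.9 CPM in TRAP WT. In KO they were 44.0, 39.1 and 58.0 CPM in input and 30.8, 31.3, 27.1 and 38.6 CPM in TRAP. TRAP libraries were below input libraries without overlap in both genotypes, by a narrow margin in KO. Homer1 fell in TRAP by 0.56 ± 0.15 (SE) on the log2 scale in WT, with edgeR adjusted p = 0.0037, and by 0.55 ± 0.14 (SE) in KO, with edgeR adjusted p = 0.0034. Without input KO replicate 3, the KO value was -0.37 with edgeR adjusted p = 0.0562, so that call rested on this library.

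Homer2, another scaffold of the family, was at 25.8, 26.2, 21.3 and 20.8 CPM in input WT and 6.53, 7.84 and 8.28 CPM in TRAP WT. In KO it was at 31.1, 30.2 and 38.4 CPM in input and 7.91, 8.51, 7.37 and 10.8 CPM in TRAP. No TRAP library reached any input library. TRAP against input gave a log2 fold change of -1.63 ± 0.16 (SE) in WT, edgeR adjusted p = 5.84e-07, and one of -1.94 ± 0.15 (SE) in KO, edgeR adjusted p = 6.61e-08. The median log2 fold change of the granule cell list in the same fits was -2.28 in WT and -2.14 in KO. Medians of the other lists outside Purkinje cells ran from -2.11 (oligodendrocyte) to -1.62 (Golgi and unipolar brush) in WT. In KO they ran from -1.92 (microglia) to -1.25 (endothelium). The Homer2 values do not single out a cell type.

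Shares within the Homer family do not depend on the scaling of libraries. A share also falls when another gene of the family rises, so it does not measure a gene's own level. Per kb of the longest transcript, Homer3 made up 95.0 ± 0.142% of Homer reads in input WT (n = 4) and 94.0 ± 0.308% in input KO (n = 3). In TRAP its share was 99.8 ± 0.0693% in WT (n = 3) and 99.7 ± 0.0248% in KO (n = 4). Homer1 made up 3.88 ± 0.150% in input WT and 0.209 ± 0.0656% in TRAP WT, and Homer2 1.11 ± 0.184% and 0.0278 ± 0.00500%. In KO the Homer1 share was 4.35 ± 0.289% in input and 0.259 ± 0.0219% in TRAP, and that of Homer2 was 1.61 ± 0.0731% and 0.0364 ± 0.00315%. Input WT libraries had Homer2 shares of 0.945% to 1.28% and input KO libraries of 1.53% to 1.68%, so that these groups did not overlap. This is a description without a test, from the same counts as the Homer2 levels in CPM. In CPM, 7.78% of all genes tested were higher in input KO without overlap, and 11.4% did not overlap in either direction. In TRAP the Homer2 shares overlapped, at 0.0232% to 0.0331% in WT and 0.0324% to 0.0398% in KO.

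**Figure D1:**
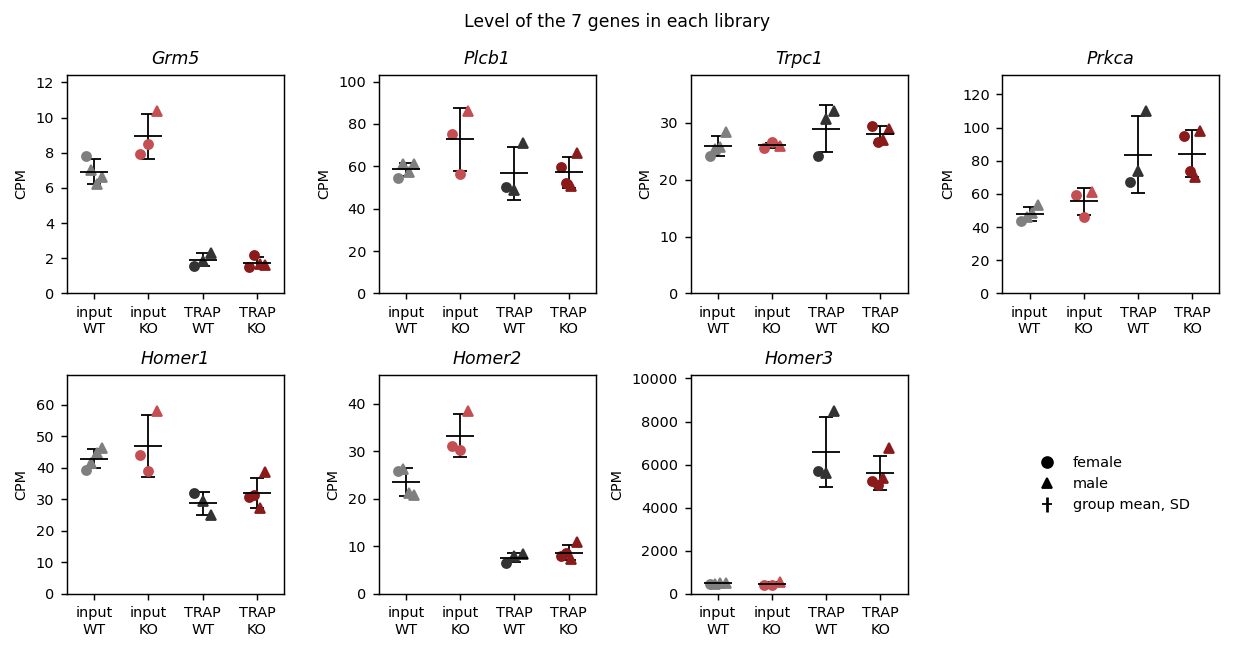
Level of each of the 7 genes in CPM (vertical axis, linear, from 0) in input and TRAP libraries of WT and KO mice; each point is 1 library, circles are female and triangles male, and bars give the group mean and SD. Homer3 lies at 412 to 559 CPM in input and at 5058 to 8474 CPM in TRAP, whereas Grm5 and Homer2 are lower in every TRAP library than in any input library.

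Grm5 encodes mGluR5, the group I receptor that mature Purkinje cells are known to use little. It was at 7.84, 7.02, 6.20 and 6.63 CPM in input WT and 1.57, 1.85 and 2.31 CPM in TRAP WT. In KO it was at 7.93, 8.48 and 10.4 CPM in input and 1.48, 2.17, 1.70 and 1.63 CPM in TRAP. These TRAP levels rest on 23 to 62 counts per library, against 218 to 701 in input, and none overlapped the input range. Grm5 fell in TRAP, its log2 fold change being -1.83 ± 0.20 (SE) in WT (edgeR adjusted p = 1.42e-06) and -2.33 ± 0.18 (SE) in KO (edgeR adjusted p = 7.64e-08).

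Plcb1 encodes phospholipase C beta 1, the isoform most used in forebrain neurons. Its levels were 54.5, 61.3, 57.4 and 60.9 CPM in input WT and 50.0, 48.9 and 71.1 CPM in TRAP WT, which overlap. In KO they were 75.4, 56.5 and 86.1 CPM in input and 59.7, 51.9, 50.8 and 66.3 CPM in TRAP, which overlap as well. The log2 fold change of TRAP against input was -0.03 ± 0.15 (SE) in WT, with edgeR adjusted p = 0.875. In KO Plcb1 fell by 0.35 ± 0.15 (SE) on the log2 scale with edgeR adjusted p = 0.0429, a call kept by 12 of 22 alternative fits. It ended without any single one of input KO replicates 1 and 3, input WT replicates 2, 3 and 4, TRAP KO replicates 2 and 3 and TRAP WT replicate 1, with log2 values from -0.37 to -0.26, and with no sex covariate (edgeR adjusted p = 0.0681) or the replicate block (0.0544).

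Values of the other phospholipase C beta genes, which were not tested against Plcb1, follow. Plcb3 averaged 42.1 ± 2.24 CPM (n = 4) in WT input and 265 ± 50.8 CPM (n = 3) in WT TRAP; it rose with log2 fold changes of 2.68 ± 0.13 (SE) in WT and 2.45 ± 0.14 (SE) in KO. Plcb4, an isoform prominent in many Purkinje cells, was at 168 ± 10.1 CPM in input WT and 293 ± 230 CPM in TRAP WT, and its log2 fold changes of 0.81 ± 0.37 (SE) and 0.25 ± 0.38 (SE) did not pass (edgeR adjusted p = 0.0596 and 0.563). Plcb2, at 17 counts or fewer in every library, had -1.09 ± 0.61 (SE) in WT, edgeR adjusted p = 0.118, and -1.81 ± 0.61 (SE) in KO, edgeR adjusted p = 0.0148. Per kb, Plcb1 was 16.4 ± 0.473% of the Plcb1 to Plcb4 reads in input WT and 6.89 ± 1.49% in TRAP WT, and 16.9 ± 1.68% and 6.90 ± 1.28% in KO.

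Trpc1 encodes a widely expressed subunit of the TRPC cation channels. It was at 24.3, 25.4, 25.7 and 28.5 CPM in input WT and 24.2, 30.7 and 32.1 CPM in TRAP WT, and at 25.7, 26.6 and 25.9 CPM in input KO and 29.5, 26.6, 27.0 and 29.0 CPM in TRAP KO. The fractions overlapped in both genotypes. Its log2 fold change of TRAP against input was 0.17 ± 0.10 (SE) in WT and 0.11 ± 0.10 (SE) in KO, with edgeR adjusted p = 0.141 and 0.366. Without TRAP WT replicate 1 the WT value was 0.28 with edgeR adjusted p = 0.029.

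Prkca encodes the alpha isoform of the calcium-dependent protein kinase C, which has been linked to long-term depression in Purkinje cells. It was at 43.4, 45.9, 48.7 and 53.4 CPM in input WT and 67.1, 73.7 and 110.0 CPM in TRAP WT. In KO it was at 59.2, 46.3 and 61.4 CPM in input and 94.7, 74.0, 69.9 and 97.8 CPM in TRAP. Every TRAP library was above every input library of its genotype. Prkca rose, its log2 fold change being 0.82 ± 0.17 (SE) in WT (edgeR adjusted p = 4.66e-04) and 0.59 ± 0.17 (SE) in KO (edgeR adjusted p = 0.00577). Prkcb, a related kinase gene known from granule cells, fell with log2 fold changes of -2.30 ± 0.20 (SE) in WT and -2.16 ± 0.19 (SE) in KO. With library totals the rise of Prkca was gone, at -0.0011 in WT and -0.15 in KO, with edgeR adjusted p = 0.995 and 0.394.

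**Figure D2:**
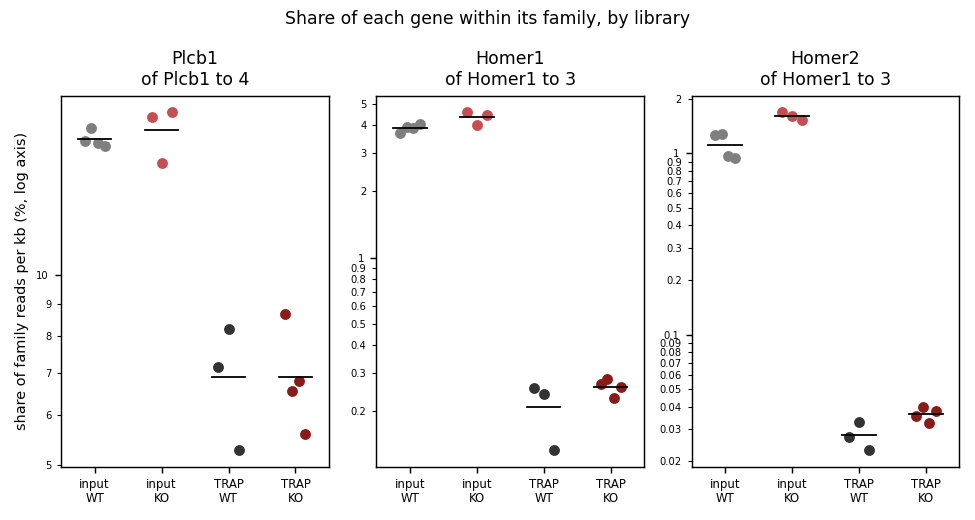
Share of each gene among the reads per kb of its family (vertical axis, percent, log scale with a different range in each panel), each point 1 library and each line a group mean. Plcb1, Homer1 and Homer2 each have a lower share in every TRAP library than in any input library. For Homer2 the means go from 1.11% to 0.0278% in WT. Shares also fall when a relative rises, as Homer3 and Plcb3 did (log2 fold changes of 3.80 and 2.68 in WT). The own log2 fold changes in WT were -0.03 for Plcb1, -0.56 for Homer1 and -1.63 for Homer2.

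TRAP against input passed for 5 of the 7 genes among WT libraries, with 2 higher and 3 lower. It passed for 6 among KO libraries, with 2 higher and 4 lower. Over all genes tested, 75.5% passed in WT and 75.9% in KO, so these counts are near the background. By direction, 37.0% of all genes were higher and 38.5% lower in WT, and 36.3% and 39.6% in KO. Homer3 and Prkca were higher, and Grm5, Homer1 and Homer2 lower, in TRAP libraries with no overlap in either genotype. Over all genes 34.2% were higher and 38.3% lower without overlap in WT (72.6% in all), and 37.3% and 40.8% in KO (78.0% in all).

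With library totals 6 genes passed in each genotype, 1 higher (Homer3) and 5 lower, while the median over all genes shifted to -0.91 (WT) and -0.85 (KO), from -0.09 and -0.11. Over all genes the calls then split into 3135 higher and 9801 lower in WT, against 5937 and 6181 with TMM, and into 3132 and 9670 in KO, against 5817 and 6359. Grm5, Homer1 and Homer2 were lower and Homer3 was higher with TMM, DESeq2 size factors and library totals alike. With library totals Trpc1 passed as lower, at -0.65 in WT and -0.63 in KO, and Plcb1 as lower, at -0.85 and -1.09. The WT and KO comparisons use separate libraries for their group means but share the sex term and 1 estimate of the spread.

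**Figure D3:**
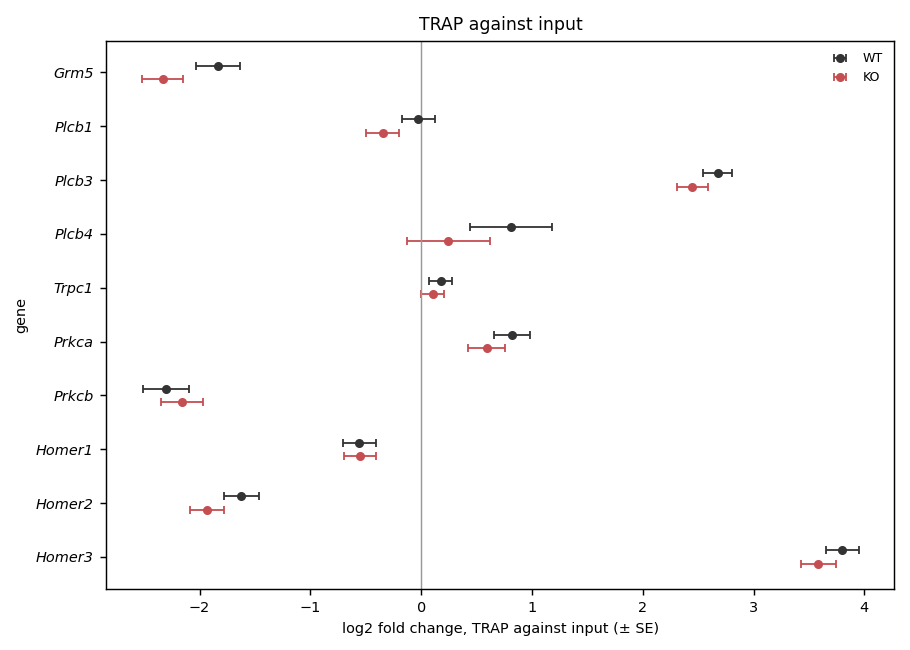
Log2 fold change of TRAP against input (horizontal axis, with SE) for the 7 genes and the related genes Plcb3, Plcb4 and Prkcb in WT (black) and KO (red). Homer3 and Plcb3 lie above 2 in both genotypes, Grm5 and Prkcb lie below -1.8, and Trpc1 and Plcb1 lie within 0.35 of 0.

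The wider pathway list held 48 genes, of which 47 were in the table and 46 were tested. In WT 37 of them passed in TRAP against input, 23 higher and 14 lower, with a median log2 fold change of 0.61 against -0.09 for all genes. In KO 40 passed, 24 higher and 16 lower, with a median of 0.68 against -0.11. Of all genes 75.5% passed in WT and 75.9% in KO. With library totals the split was 18 higher and 23 lower in WT and 19 and 22 in KO, and the list's median turned to -0.21 in WT and -0.05 in KO, against -0.91 and -0.85 for all genes. The highest log2 fold change in both genotypes was that of Car8, which encodes a partner of the inositol trisphosphate receptor (3.60 in WT, 3.42 in KO), and the diacylglycerol kinase gene Dgkz was also high (2.96 and 2.73). The lowest in WT were Trpc5 (-2.61), the cannabinoid receptor gene Cnr1 (-2.56) and the inositol trisphosphate receptor gene Itpr3 (-2.50), and in KO Trpc5 (-2.80), Cnr1 (-2.46) and Prkcb (-2.16).

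Compared per kb, Homer3 was the highest of the 7 genes in all 4 groups, at 184 ± 8.06 CPM per kb in input WT and 2530 ± 623 in TRAP WT. In input WT it was followed by Plcb1 (8.13 ± 0.443), Homer1 (7.52 ± 0.551), Trpc1 (5.70 ± 0.388), Prkca (5.69 ± 0.509), Homer2 (2.14 ± 0.264) and Grm5 (0.860 ± 0.0866), all in CPM per kb. Plcb1 and Homer1 differed by less than the sum of their SDs, as did Trpc1 and Prkca. In TRAP WT the order after Homer3 was Prkca (9.94 ± 2.75), Plcb1 (7.87 ± 1.74), Trpc1 (6.37 ± 0.924), Homer1 (5.03 ± 0.627), Homer2 (0.688 ± 0.0830) and Grm5 (0.237 ± 0.0466). From Prkca to Homer1 neighbours differed by less than the sum of their SDs, and the same order held in TRAP KO.

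The effect of losing ASTN2, a membrane protein linked to trafficking of synaptic receptors, was then compared for these genes within each fraction. In TRAP, 0 of the 7 genes passed the adjusted threshold of 0.05 in edgeR's test and 0 had an unadjusted p under 0.05; the DESeq2 Wald test and sample quality weights also gave 0. Among all 14145 genes 0.00707% passed and 1.50% had an unadjusted p under 0.05. The median SE of the log2 fold change over all genes was 0.227 in this fit, against 0.0976 in the input fit. A difference of a given size was thus harder to detect in TRAP. KO and WT levels overlapped for each of the 7 genes; 4.56% of all genes did not overlap. The log2 fold changes were -0.18 ± 0.19 (SE) for Homer3, 0.15 ± 0.18 for Homer1, 0.24 ± 0.21 for Homer2, -0.11 ± 0.30 for Grm5, 0.05 ± 0.19 for Plcb1, -0.01 ± 0.16 for Trpc1 and 0.05 ± 0.22 for Prkca. Their median was 0.05 against 0.0018 for all genes, and 4 were positive.

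In input, 0 of the 7 genes passed in edgeR's test (0.0188% of all genes did), but 5 of 7 had an unadjusted p under 0.05, all higher in KO, against 13.7% of all genes in either direction and 6.24% higher. The DESeq2 Wald test called 2 of them, Homer2 and Plcb1, in a fit that called 294 of 15997 genes (1.84%), and sample quality weights called 0. For Homer2 KO exceeded WT by 0.49 ± 0.12 (SE) on the log2 scale, with an unadjusted p of 0.00246 and edgeR adjusted p = 0.189. Plcb1 had 0.37 ± 0.11 (SE), with an unadjusted p of 0.00676 and edgeR adjusted p = 0.226. For Grm5 the value was 0.35 ± 0.12 (edgeR adjusted p = 0.282), for Prkca 0.26 ± 0.10 (0.319) and for Homer1 0.21 ± 0.08 (0.325). Trpc1 and Homer3 were at -0.0046 ± 0.08 and 0.00071 ± 0.08. The median of the 7 was 0.26 against -0.01 for all genes.

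Homer2 and Grm5 were the 2 genes whose input KO libraries all lay above all input WT libraries, which held for 7.78% of genes tested (11.4% in either direction). For Grm5 the margin was small, since the lowest KO library was at 7.93 CPM and the highest WT library at 7.84 CPM. Input KO replicate 3, the only male of its group and the deepest library, was the highest of all input libraries for Grm5, Prkca, Plcb1, Homer1, Homer2 and Homer3. Without it, 0 of the 7 genes had an unadjusted p under 0.05 in edgeR's test. The log2 fold changes were then 0.24 for Homer2, 0.27 for Plcb1, 0.06 for Grm5, 0.28 for Prkca, 0.07 for Homer1 and -0.16 for Homer3. That fit holds no KO male. With sex as covariate, its genotype values rest on 2 KO females against 1 WT female. The SE rose from 0.106 to 0.164 for Plcb1 and from 0.103 to 0.165 for Prkca. The loss of p-values under 0.05 thus does not by itself mean smaller differences. Without input KO replicate 2, Plcb1 passed, with a log2 fold change of 0.48 and edgeR adjusted p = 0.0263, in a fit that called 158 of 16083 genes (0.982%).

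Sex is unevenly spread over the input groups, so the values were also set side by side within each sex; with 1 WT female and 1 KO male these carry no test. Homer2 was at 31.1 and 30.2 CPM in KO females against 25.8 CPM in the WT female, and at 38.4 CPM in the KO male against 26.2, 21.3 and 20.8 CPM in WT males. Grm5 was at 7.93 and 8.48 against 7.84 CPM in females and at 10.4 against 7.02, 6.20 and 6.63 CPM in males. Homer3 was lower in KO females (412 and 419 CPM) than in the WT female (462 CPM) and higher in the KO male (559 CPM) than in WT males (460.0 to 499.5 CPM). In the same KO male library the summed Golgi and unipolar brush cell markers stood at 201 CPM, against 129 to 175 CPM in WT, the summed Purkinje markers at 3507 CPM, against 2835 to 2990 CPM in WT, and the summed endothelial markers at 15.7 CPM, against 23.4 to 34.1 CPM in WT. Its Bergmann glia and astrocyte markers summed to 3452 CPM, against 2613 to 3012 CPM in WT. Its molecular layer interneuron markers summed to 1166 CPM, against 1027 to 1130 CPM. Without Aldoc, the first list summed to 1525 to 1692 CPM in input KO, against 1283 to 1805 CPM in input WT. Without Pvalb, the second summed to 302.2 to 323.5 CPM in input KO, against 304.3 to 325.5 CPM in input WT. No input KO library then exceeded the WT range in either list. Granule markers in the KO male library summed to 6170 CPM, against 5889 to 6161 CPM in WT. Its oligodendrocyte and microglial sums lay within the WT range. Input KO replicates 1 and 2 had Purkinje sums of 2952 and 3101 CPM and Bergmann glia and astrocyte sums of 3289 and 2906 CPM. Their Golgi and unipolar brush cell sums were 150 and 148 CPM, and their molecular layer interneuron sums 1065 and 1117 CPM. Their endothelial sums were 23.6 and 24.2 CPM, and their granule sums 5966 and 6161 CPM. The part of these marker levels in the result was not tested. In whole tissue, fewer cells of a type and less RNA per cell cannot be told apart.

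**Figure D4:**
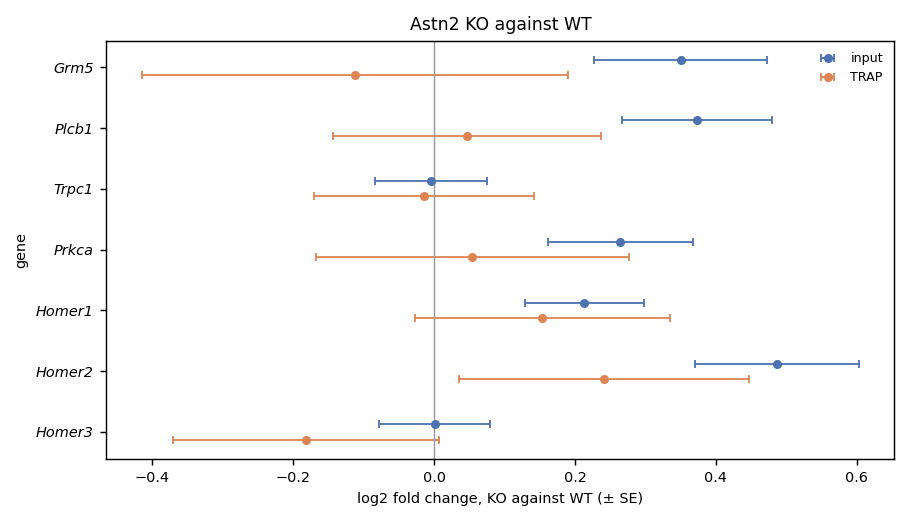
Log2 fold change of KO against WT (horizontal axis, with SE) for the 7 genes in input (blue) and TRAP (orange), from edgeR fits within each fraction. In input Homer2, Plcb1 and Grm5 lie at 0.49, 0.37 and 0.35 with none past the adjusted threshold, and in TRAP all 7 lie between -0.18 and 0.24.

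**Figure D5:**
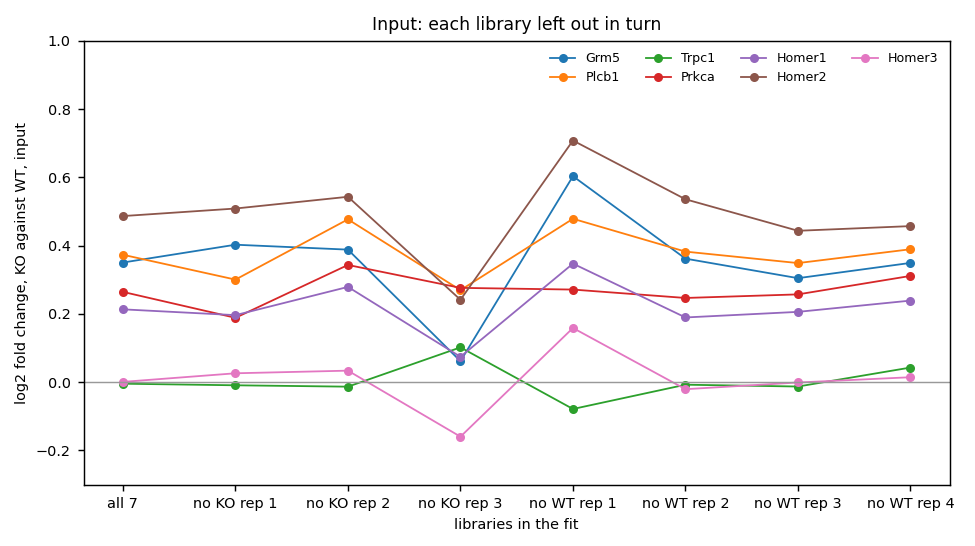
Log2 fold change of KO against WT in input (vertical axis) for each of the 7 genes, with all 7 libraries and with each library left out in turn (horizontal axis); lines join the values of 1 gene. Without KO replicate 3, the only KO male, the values of Homer2, Grm5 and Homer1 drop to 0.24, 0.06 and 0.07. Without WT replicate 1, the only WT female, Homer2 and Grm5 rise to 0.71 and 0.60.

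Whether the genotype effect differed between the fractions was tested by the interaction, and it passed for 0 of the 7 genes (0 also at unadjusted p under 0.05); over all 16042 genes 0.00% passed and 2.68% had an unadjusted p under 0.05. At the adjusted threshold the DESeq2 Wald test and sample quality weights gave 0 as well. At an unadjusted p under 0.05 the DESeq2 Wald test gave 0 of the 7. Sample quality weights gave 1 there, in a fit where 1617 of 16042 genes had such a p. The largest value was that of Grm5, at -0.50 ± 0.27 (SE) on the log2 scale with an unadjusted p of 0.0829 and edgeR adjusted p = 0.999. Of the 7 values 6 were negative, with a median of -0.23 against -0.02 for all genes. Hence the higher levels in input KO and the values near 0 in TRAP were not shown to differ.

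Of the 46 tested genes of the wider pathway list, 0 passed for genotype in input and 10 had an unadjusted p under 0.05, 8 of them higher in KO, against 13.7% and 6.24% of all genes. In TRAP 45 were tested, 0 passed and 1 had an unadjusted p under 0.05, against 1.50% of all genes.

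The genes whose pattern over the 14 libraries was most like each of the 7 were found by Pearson correlation of log2(CPM + 1), among 10154 genes with a mean of at least 3 on that scale. The points of a pair share library, fraction and depth. Homer3 was most like Desi1 and Kcnip1 (r of 0.9995 and 0.9994), Grm5 most like Ep400 and Nhsl1 (0.992 and 0.991), and Homer2 most like Ankrd44 and Spast (0.9897 and 0.9895). Prkca was most like the adaptor subunit gene Ap2b1 and Kpna4 (both 0.976), Homer1 most like Ppp2r3a (0.963) and Sipa1l2 (0.957). Plcb1 was most like Ap1g1 (0.922) and Dnajc6 (0.920), and Trpc1 most like Epha4 (0.889) and 4930430F08Rik (0.884).

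In GENCODE M21 on GRCm38 the 7 genes lie at chr7:87584168-88134907 plus strand (Grm5), chr2:134786067-135475258 plus strand (Plcb1), chr9:95705082-95750375 minus strand (Trpc1), chr11:107933387-108343928 minus strand (Prkca), chr13:93299635-93405129 plus strand (Homer1), chr7:81600481-81707527 minus strand (Homer2) and chr8:70282827-70294361 plus strand (Homer3). All are protein coding. Homer3 overlaps 1 annotated gene, Ddx49, on the opposite strand, Grm5 overlaps 6, Prkca 4, Plcb1 3, and Homer1 and Homer2 2 each. Reads at those overlaps are uncertain. The genes overlapping Homer1 lie on its own strand, and those overlapping Prkca and Homer2 on the opposite strand. Grm5 and Plcb1 have overlaps of both kinds. On the same strand, a strand setting would not separate reads. For opposite strands, the sources used here do not say whether counting used strand. Trpc1 overlaps 0 annotated genes.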

How the data were processed

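The authors deposited whole-number counts per Entrez gene for 14 libraries, 1 column per library and all matched to a label. Salmon 0.8.2 and mm10 are named in the submitters' processing notes without a role, so whether the counts are rounded estimates, and the annotation and strand setting, are not given in the sources used here. Totals ranged from 18799609 to 54229183 counts. Symbols came from RefSeq GRCm38.p6. Transcript lengths came from the longest GENCODE M21 transcript of each gene.

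Tests were edgeR 4.0.16 quasi-likelihood tests (R 4.3.3), two-sided, with TMM factors, filterByExpr, sex as covariate and Benjamini-Hochberg adjustment over all genes at 0.05. Genotype was tested within each fraction; TRAP against input and the interaction were tested in all 14 libraries. Standard errors are the absolute log2 fold change over the square root of F. The scripts were tested on simulated data. Same-numbered input and TRAP libraries deviated together in all 3 WT pairs (correlations of 0.101 to 0.323 over 10160 genes), so these numbers may pair libraries.

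The 7 genes and all lists were chosen with earlier results of these data known. Named beside the 7 are Astn2, Plcb4, and pathway genes among the 3 highest and 3 lowest of each fraction contrast; some genes that the rule names are not reported here; the 2 nearest patterns per gene follow the correlation rule given with them. Plcb2, Plcb3, Prkcb and Dgkh were named after their values were seen. Alternatives were DESeq2 size factors, library totals, no sex covariate, no filter, a minimum mean count of 50, the Wald test of DESeq2 1.42.0, sample quality weights (limma 3.58.1), all 14 libraries, a replicate block and each library left out.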

Additional observations from a re-analysis of the deposited data

How the results depend on the processing

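For the 7 genes, TRAP KO against WT and the interaction gave 0 calls in every alternative run. In input KO against WT the count was 2 with the DESeq2 Wald test, which called 294 of 15997 genes. It was 0 to 1 with single libraries left out, the 1 being without input KO replicate 2. There 158 of 16083 genes were called, against 3 with all libraries. Pathway genes numbered 3 with the DESeq2 Wald test and 0 to 2 with a library left out. Without a filter 1 passed, in a fit that called 23 of 20648 genes. The counts for TRAP against input were 5 to 6 (WT) and 4 to 6 (KO) with single libraries left out. With library totals Trpc1 changed to -0.65 in WT and -0.63 in KO, and Prkca to -0.0011 and -0.15. The replicate block took the place of the sex covariate. For genotype it paired KO and WT libraries by number, with replicate 2 a KO female and a WT male in both fractions. For the fractions and the interaction it left out input WT replicate 4 and TRAP KO replicate 4. With this block, the 7 genes gave 0 calls in TRAP, 0 in input (2 at an unadjusted p under 0.05), 5 in WT fractions, 5 in KO fractions and 0 in the interaction. Plcb1 in KO had -0.39 and edgeR adjusted p = 0.0544. The block changed no call of the 7 genes in WT. Same-numbered libraries correlated at -0.219 to 0.282 between KO fractions (4 of 6 libraries best with their own number), -0.00854 to 0.128 between input genotypes (2 of 6) and -0.22 to -0.0578 between TRAP genotypes (0 of 6). Without length correction Homer1 had 7.87%, 8.63%, 0.456% and 0.566% of Homer counts in input WT, input KO, TRAP WT and TRAP KO, Homer2 4.33%, 6.14%, 0.117% and 0.153%, and Homer3 87.8%, 85.2%, 99.4% and 99.3%; the length term alone sets this shift. Grm5 in TRAP rests on 23 to 62 counts per library. The cause of the other changes was not tested.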

Other observations

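Dgkh, a diacylglycerol kinase gene of the wider pathway list that was named after its values were seen, had the smallest unadjusted p of that list for genotype in input. Input KO averaged 27.0 ± 4.09 CPM (SD, n = 3) and input WT 16.5 ± 1.02 CPM (SD, n = 4), without overlap. Of all genes tested, 7.78% were higher in input KO without overlap. The log2 difference of Dgkh was 0.70 ± 0.11 (SE), edgeR adjusted p = 0.105. It passed in 3 of 16 alternative fits (the DESeq2 Wald test, no filter, input KO replicate 2 left out). Those fits called 294 of 15997, 23 of 20648 and 158 of 16083 genes. In TRAP KO Dgkh averaged 17.4 ± 11.8 CPM (SD, n = 4) and in TRAP WT 12.5 ± 4.02 CPM (SD, n = 3), which overlap.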
